A study of Homo sapiens with 35 samples.

Results

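The comparison set BE(2)-C cells given all-trans retinoic acid (ATRA) together with valproic acid (VPA) for 24 h against BE(2)-C cells given VPA without ATRA for 24 h. Its members were chosen by their titles: 3 arrays of ATRA at 5 uM plus VPA at 1 mM and 3 arrays of VPA at 1 mM, 6 of the 35 arrays in the series, read across 11940 genes. VPA was present in both groups, so the contrast measures what ATRA added in its presence. BE(2)-C is a human neuroblastoma line with extra copies of MYCN. The series as a whole followed this line under ATRA plus VPA, ATRA, VPA and the vehicle DMSO at 6, 24 and 72 h; its title names a gene expression signature for differentiation as the goal. It holds 1 cell line and 1 dose of each agent. Its labels speak of triplicates without naming separate cultures, so every p-value measures the spread between these samples, which may be technical.

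ATRA enters cells, is carried by a cellular binding protein and activates the retinoic acid receptors, which sit with retinoid X receptors on paired copies of a short hexamer near their target genes. Among the classical targets are the enzymes that destroy ATRA, the receptors themselves and the HOX genes. VPA inhibits histone deacetylases, the enzymes that take acetyl groups off histones. In neuroblastoma cells, retinoic acid slows division and brings out neurites, and a retinoid is part of patient treatment.

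Values are array intensities on a linear scale, given per probe set, without detection calls, and folds are ratios of intensity plus 1. Lower quartiles of the arrays were between 21.5 and 22.2 with ATRA plus VPA and between 21.5 and 22.5 with VPA, and a level near this is not shown to be above background. Of 8 neuroblastoma markers measured, MYCN, CHGA, GATA3, PHOX2A, ISL1, DBH and TH lay well above that level in both groups, and HAND2, at 32.8 with ATRA plus VPA and 25.3 with VPA, lay near it. The 9 Schwann and glial markers summed to between 196 and 203 with ATRA plus VPA and between 208 and 219.9 with VPA, and the 8 haematopoietic ones to between 185 and 192 with ATRA plus VPA and between 178 and 200.4 with VPA. Each of these 17 genes was below 64 in both groups and none passed the test. On GAPDH and ACTB control probe sets, the log2 ratio of 3' to 5' signal reflects how intact and fully labelled the RNA is. It was 1.34, 0.87 and 0.70 with ATRA plus VPA, against 1.25, 2.33 and 1.22 with VPA. The difference of -0.63 had p = 0.30 in an exact two-sided permutation test, which cannot go below 0.10 with 3 arrays against 3. VPA replicate 2 had the highest ratio of the 6.

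With ATRA on top of VPA, some genes rose steeply, led by the kinase gene PRKCH and the serotonin receptor gene HTR2B, and the enzymes that destroy ATRA rose with them. Genes of DNA replication and mitosis fell, by less than 2-fold each. Adding ATRA to VPA changed 1417 of 11940 genes, 11.9% of those tested, at an adjusted p under 0.05 (limma, Benjamini-Hochberg). There were 612 genes that rose (5.13%) and 805 that fell (6.74%). Most changes were small. In 736 genes the log2 change was below 0.5 in size, in 545 it lay between 0.5 and 1, and in 136 it was at least 1, a 2-fold change. The large changes were mostly rises, with 102 rises and 34 falls of 2-fold or more. In cultures measured in bulk, fewer cells of a type and less RNA per cell cannot be told apart. The count was 896 without ATRA plus VPA replicate 3. The falls numbered 479 without that array, 521 without VPA replicate 2 and 531 with the 3' to 5' ratio as a covariate. With that covariate 1004 genes passed, and 851 of the 1417 (60.1%) were among them. Without ATRA plus VPA replicate 1 there were 1609, with 1204 of the 1417 (85%) among them.

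**Figure D1:**
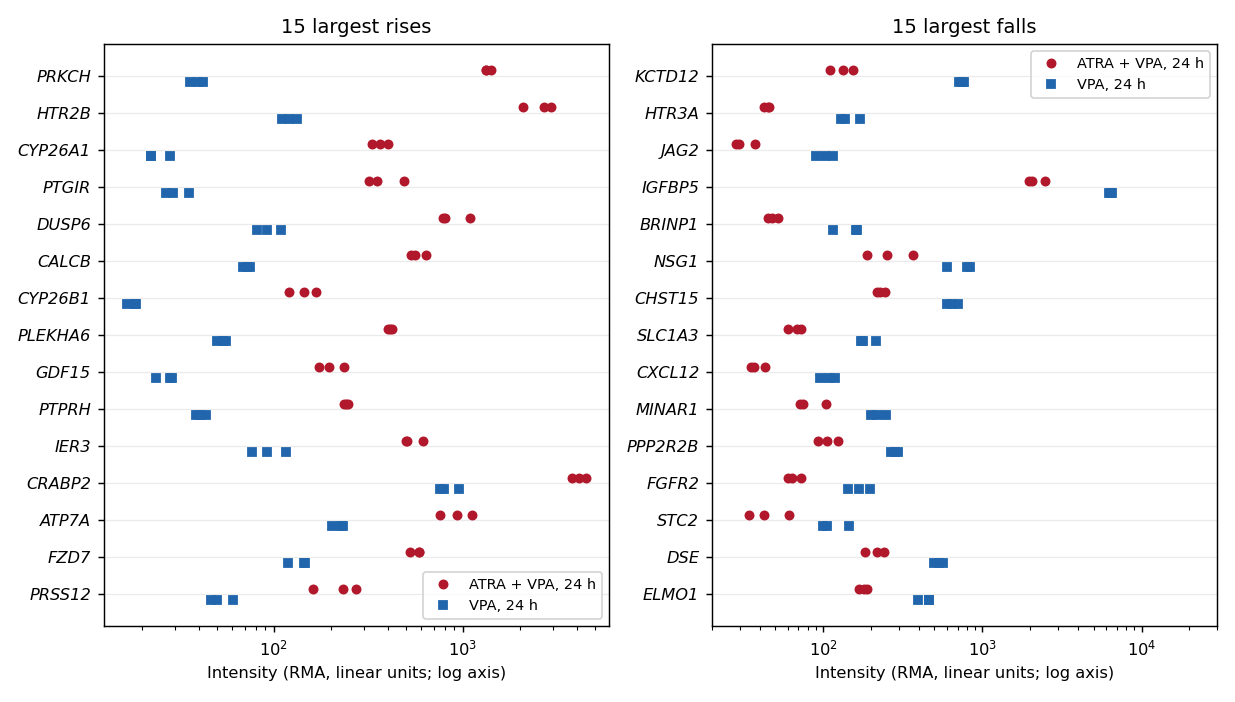
Intensity (log scale) of the 15 largest rises and the 15 largest falls in each of the 3 ATRA plus VPA arrays and the 3 VPA arrays at 24 h, 1 point per array. Genes were taken from those whose groups do not overlap, so the separation is part of the choice, and PRKCH has the widest gap at 33.7-fold.

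PRKCH, the eta isoform of protein kinase C, had the largest rise of all. Its intensity was 1330.3, 1400.2 and 1330.4 in the ATRA plus VPA arrays, against 39.5, 42.4 and 35.8 in the VPA arrays, a 33.7-fold rise (log2 change 5.08 ± 0.13, the error being a standard error here and below, with 3 arrays in each group, adjusted p = 6.6e-22). Each ATRA plus VPA array stood far above every VPA array, and the spread within either group was small. Of the 10 protein kinase C genes measured, 5 had a positive change and PRKCH was the single one that passed as a rise. PRKCE had a log2 change of 0.97 that did not pass (adjusted p = 0.36, between 0.26 and 1.77 in the alternatives). Of the 10, 3 passed as falls, and among all genes 5.13% rose and 6.74% fell. PRKCA, a conventional isoform, fell by 0.61 on the log2 scale (adjusted p = 2.2e-05), or 0.34 averaged over its probe sets, and the 2 other members that passed, PRKCZ and PRKD3, fell by 0.39 and 0.34, PRKCZ by 0.16 with the 3' to 5' ratio as a covariate and PRKD3 by 0.22 as the mean of its probe sets. Without ATRA plus VPA replicate 2, VPA replicate 1 or VPA replicate 2 the falls in this family numbered 1, and without ATRA plus VPA replicate 1 there were 2 rises.

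HTR2B, a serotonin receptor that signals through Gq, was at 2071, 2700.1 and 2942 with ATRA plus VPA, against 119.5, 110.1 and 132 with VPA (log2 change 4.39 ± 0.14, adjusted p = 2.9e-20). PTGIR, the prostacyclin receptor, read 319, 349 and 487 with ATRA plus VPA, against 27.0, 29.4 and 35.5 with VPA (3.59 ± 0.20, adjusted p = 6.6e-14). In the VPA arrays PTGIR was close to the lower quartile, and HTR2B was above the median intensity of each array. CALCB, the gene of the beta form of calcitonin gene-related peptide, had 639.6, 559 and 532 with ATRA plus VPA, against 72.1, 74.4 and 68.7 with VPA (2.99 ± 0.11, adjusted p = 2.5e-18). GDF15, a secreted member of the TGF-beta family, had 195, 172 and 234 with ATRA plus VPA, against 23.7, 28.1 and 29.0 with VPA (2.85 ± 0.14). Its log2 change was 1.44 when all its probe sets were averaged. The remaining genes of the 15 largest rises included PLEKHA6, which carries a pleckstrin homology domain (log2 change 2.92), the receptor tyrosine phosphatase PTPRH (2.53), the copper pump ATP7A (2.06), the Wnt receptor FZD7 (2.04) and the neuronal serine protease PRSS12 (2.03).

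Of 15 measured genes that bind, make or break down retinoids, 4 rose steeply and none fell, beside 5.13% and 6.74% of all genes. The list's median log2 change was 0.04, beside -0.03 over all genes. CYP26A1, which oxidises ATRA, had 363, 402 and 332 with ATRA plus VPA, against 22.3, 28.1 and 22.4 with VPA, or 14.5-fold (log2 change 3.86 ± 0.17, adjusted p = 2.4e-16). CYP26B1, a second such oxidase, had 144, 119.9 and 167 with ATRA plus VPA, against 18.4, 18.6 and 16.6 with VPA (2.93 ± 0.14, adjusted p = 7.8e-16, or 1.81 with a pseudocount of 32). With VPA both enzymes sat near the lower quartile of the arrays, where the size of a fold depends on the pseudocount. CRABP2, which hands ATRA to its receptor, was already well expressed with VPA and read 3757, 4093 and 4492 with ATRA plus VPA, against 957, 759 and 792 with VPA (2.30 ± 0.17, adjusted p = 1.7e-11). DHRS3, which turns retinal back into retinol, had 72.2, 115 and 102 with ATRA plus VPA, against 29.8, 35.2 and 34.6 with VPA (1.49 ± 0.19, adjusted p = 9.7e-07, or 0.96 with a pseudocount of 32). STRA6, a retinol transporter, had a log2 change of 0.21 ± 0.10 with an adjusted p of 0.22, and its groups overlapped.

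Of 11 measured receptors and coregulators, 3 rose and 1 fell (median log2 change 0.15), beside 5.13% and 6.74% of all genes. RARA, the alpha receptor, had 376, 353 and 340.1 with ATRA plus VPA, against 189, 199.7 and 164 with VPA (log2 change 0.95 ± 0.10, adjusted p = 1.6e-08, or 0.52 as the mean of its probe sets). NRIP1, a corepressor of nuclear receptors, rose by 0.78 (adjusted p = 4.6e-07). RARB, the beta receptor, passed at 30.4, 32.1 and 28.5 with ATRA plus VPA, against 19.3, 21.5 and 17.97 with VPA (0.61 ± 0.10), but both groups were near the lower quartile and its change was 0.03 when its probe sets were averaged. RXRA, a partner of these receptors, fell by 0.48 (adjusted p = 0.036), or 0.26 as the mean of its probe sets, with groups that overlapped, and the call was lost without ATRA plus VPA replicate 2 or 3 or VPA replicate 1 or 2.

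A direct repeat of the receptor's hexamer with 5 bases between the copies (DR5) was searched on both strands of RefSeq promoter windows, 250 bases before to 50 after each start (GRCh38.p14). Of 9592 genes with a window, 10 held it (0.104%), among them 2 of the 501 rising genes that have a window and 0 of the 646 falling ones. CYP26A1 and RARB were those 2, and the stretches that hold the repeat are shown, with it in capitals, because these genes are the textbook retinoid targets of this comparison. That of CYP26A1 is chr10:93073771-93073850, plus strand, and its repeat lies on the opposite strand, 90 to 74 bases before the start. That of RARB is chr3:25428178-25428257, plus strand, with its repeat 53 to 37 bases before the start. RARB's rise lay near the lower quartile of the arrays and was 0.03 when its probe sets were averaged. Repeats with 2 bases between the copies (DR2) and with 1 (DR1) were also searched. DR2 was in 5 genes (0.0521%), 1 rising and 0 falling. DR1 was in 21 genes (0.219%), 2 rising and 1 falling. A match is a description of the letters and not of binding.
CYP26A1: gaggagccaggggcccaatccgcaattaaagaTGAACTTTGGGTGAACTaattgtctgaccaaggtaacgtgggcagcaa
RARB: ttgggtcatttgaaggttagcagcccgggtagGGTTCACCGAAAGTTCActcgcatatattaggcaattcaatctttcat

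HOX genes, which set position along the body axis, rose in 7 of 19 measured and fell in none (median log2 change 0.10). Among all genes 5.13% rose and 6.74% fell. HOXD4 had 167, 163 and 161 with ATRA plus VPA, against 47.6, 53.9 and 42.2 with VPA (log2 change 1.76 ± 0.13, adjusted p = 1.2e-11). HOXD9 had 139.6, 159 and 199 with ATRA plus VPA, against 72.6, 98.1 and 73.5 with VPA (1.02 ± 0.18, adjusted p = 0.0002), or 0.51 as the mean of its probe sets. The other risers were HOXD1, HOXD3, HOXC4, HOXC5 and HOXC6, and in all 7 the arrays of the groups did not overlap. Over all genes, 10.4% had every ATRA plus VPA array above every VPA array and 13.8% had the opposite order. These 7 HOX genes were called on the same arrays, so their separation is no further finding. HOXC6, the brightest of those described, changed by 0.50 on the log2 scale, while the call for HOXC5 (0.51) was lost without ATRA plus VPA replicate 3 or VPA replicate 2 or 3.

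RET, the receptor kinase for the GDNF family, was at 2300.0, 2230.0 and 2546 with ATRA plus VPA, against 839.8, 780.1 and 662 with VPA (log2 change 1.64 ± 0.15, adjusted p = 1.1e-09). Every ATRA plus VPA array was above every VPA array, as in 10.4% of all genes. RET was called on the same arrays, so this separation is no further finding. GFRA2, a coreceptor that hands GDNF family ligands to RET, fell by 0.53 (adjusted p = 0.012), a call lost without ATRA plus VPA replicate 1. The neurotrophin receptor NTRK2 was at 46.2 ± 7.32 with ATRA plus VPA and 51.2 ± 12.4 with VPA (SD, n = 3 each), with an adjusted p of 0.63. EPHA2, an ephrin receptor kept on the same list, rose by 1.14. In that list 2 of 11 measured members rose and 1 fell, beside 5.13% and 6.74% of all genes.

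Genes that are switched on by, or hold back, ERK signalling rose in 10 of 31 measured and fell in 1 (median log2 change 0.13). For all genes the shares were 5.13% and 6.74%. DUSP6, a phosphatase that switches ERK off, had 1087, 808 and 782 with ATRA plus VPA, against 109, 81.2 and 91.9 with VPA (log2 change 3.23 ± 0.12, adjusted p = 6.7e-18). IER3, an early response gene, had 612, 508 and 499 with ATRA plus VPA, against 92.4, 116 and 76.7 with VPA (2.51 ± 0.14, adjusted p = 4.5e-14). PHLDA1, another gene of that response, had 539, 539 and 569 with ATRA plus VPA, against 142, 142 and 121 with VPA (2.02 ± 0.13). In these 3 genes the arrays separated by several-fold. The feedback inhibitors SPRY4 and SPRY2 rose by 1.13 and 0.69, SPRY4 by 0.52 as the mean of its probe sets and SPRY2 by 0.42 with the 3' to 5' ratio as a covariate. EGR1, the classical immediate early factor, was at 1856 ± 199 with ATRA plus VPA and 1439.5 ± 172 with VPA (SD, n = 3 each) and did not pass (adjusted p = 0.071). Its groups did not overlap, an order found in 10.4% of all genes.

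KCTD12, an auxiliary subunit of GABA-B receptors, had the largest fall. It was at 134, 155 and 111 with ATRA plus VPA, against 717, 765 and 746 with VPA (log2 change -2.48 ± 0.10, adjusted p = 2.7e-17). HTR3A, the serotonin-gated channel, had 42.5, 45.6 and 45.4 with ATRA plus VPA, against 129, 136 and 169.9 with VPA (-1.67 ± 0.22, or -1.04 as the mean of its probe sets), while the Gq-linked serotonin receptor HTR2B rose. IGFBP5, a binding protein for insulin-like growth factors and one of the brightest falling genes, had 2469, 1957 and 2055 with ATRA plus VPA, against 6526, 6428 and 6267 with VPA (-1.57 ± 0.10, adjusted p = 1.5e-12). The rule that chose the 15 largest rises and the 15 largest falls took genes with separate groups, so the lack of overlap in these 3 is no finding.

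The Notch ligand JAG2 fell to 37.5, 29.5 and 28.4 with ATRA plus VPA, against 102, 116 and 89.6 with VPA (log2 change -1.66 ± 0.16, or -1.07 with a pseudocount of 32). Others among the 15 largest falls were BRINP1, a neural gene linked to growth arrest (-1.56, or -0.64 as the mean of its probe sets), the neuronal endosomal protein NSG1 (-1.51), the glutamate transporter SLC1A3 (-1.47), the chemokine CXCL12 (-1.47) and the sugar-modifying enzymes CHST15 (-1.50) and DSE (-1.31), which act on chondroitin and dermatan sulfate. ELMO1, an activator of RAC signalling, fell by 1.29. FGFR2, a fibroblast growth factor receptor, fell by 1.35, and by 0.51 when all its probe sets were averaged. All 30 of the largest rises and falls kept their call in the 16 alternatives run.

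Genes of DNA replication moved 1 way: 19 of 41 measured fell and none rose, beside 6.74% of all genes falling. Their median log2 change was -0.32, and 39 of 41 were negative. The falls were modest, between -0.77 and -0.27. FEN1, which trims Okazaki fragments, had 1301, 969.9 and 764 with ATRA plus VPA, against 1770.5, 1749 and 1541 with VPA (log2 change -0.77 ± 0.12, adjusted p = 2.2e-05). CDC45, part of the replicative helicase, had 585, 570.0 and 491 with ATRA plus VPA, against 934, 973 and 823 with VPA (-0.73 ± 0.09, adjusted p = 9.9e-07). CDC7, the kinase that fires origins, had 824, 670.0 and 730.1 with ATRA plus VPA, against 1122, 1246 and 1143 with VPA (-0.66 ± 0.09). For each of the 3 no array of the groups overlapped, as in 13.8% of all genes in this direction. They were named for the size of their change, so the separation is no further finding. E2F1, the factor that drives many replication genes, fell by 0.59, and GINS2, also of the helicase, by 0.52. The list's summed intensity was 36791 to 39087 in the ATRA plus VPA arrays, against 47037 to 48176 in the VPA arrays.

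Genes of G2 and mitosis fell in 16 of 39 and rose in none (median log2 change -0.25, 34 of 39 negative). Among all genes 6.74% fell and 5.13% rose. CDC20, the activator of the anaphase-promoting complex, had 849, 781 and 718 with ATRA plus VPA, against 1285, 1174 and 1026 with VPA (log2 change -0.57 ± 0.11, adjusted p = 0.00075). MYBL2, a transcription factor of late cell cycle genes, fell by 0.57, and KIF11, the motor that separates spindle poles, fell by 0.42. MKI67, a mark of cycling cells, fell by 0.35 (adjusted p = 0.0078), a call that was lost when its probe sets were averaged and without ATRA plus VPA replicate 3 or VPA replicate 2. The count of falls was 6 without ATRA plus VPA replicate 3, 8 without VPA replicate 2 and 10 without VPA replicate 3. It was 13 with the 3' to 5' ratio as a covariate, while that of the replication list was 21. The 3' to 5' ratio itself was higher on average with VPA, and its part in these falls was not tested beyond these values.

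Promoter windows of both lists are shown because E2F letters and CHR letters differ in frequency between the lists. The E2F element was searched as TTTCCCGC, TTTCGCGC, TTTGCCGC or TTTGGCGC, the cell cycle homology region (CHR) as TTTGAA and the NF-Y box as CCAAT, each on both strands. E2F letters were in 21 of the 37 replication genes with a window (56.8%), against 6.09% of all 9592 genes, and in 2 of the 32 mitotic genes (6.25%). CHR letters were in 21 of the 32 mitotic genes (65.6%), against 15.4% of all, and in 1 of the 37 replication genes. CCAAT was in 27 of the 32 mitotic genes (84.4%), against 44.4% of all, and in 21 of the 37 replication genes (56.8%). Among the members that fell, E2F letters were in 12 of 17 replication genes and CHR letters in 9 of 15 mitotic genes, so members that fell and members that did not pass both carried them. Capitals mark E2F letters in the replication genes, and CHR and CCAAT letters in the mitotic genes. The E2F1 stretch also holds a CCAAT, left in lower case. The windows are CDC7 at chr1:91501032-91501111, plus strand, and E2F1 at chr20:33686386-33686465, minus strand, for the E2F letters. For CHR and CCAAT they are CDC20 at chr1:43358879-43358958, plus strand, KIF11 at chr10:92593050-92593129, plus strand, with both matches on the opposite strand, and MKI67 at chr10:128126424-128126503, minus strand, where a CHR match and a CCAAT match share bases.
CDC7: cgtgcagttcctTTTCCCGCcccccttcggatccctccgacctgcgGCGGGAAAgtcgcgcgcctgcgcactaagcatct
E2F1: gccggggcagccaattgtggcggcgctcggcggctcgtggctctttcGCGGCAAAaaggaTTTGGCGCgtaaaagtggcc
CDC20: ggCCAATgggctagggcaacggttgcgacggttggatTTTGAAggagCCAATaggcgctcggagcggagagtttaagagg
KIF11: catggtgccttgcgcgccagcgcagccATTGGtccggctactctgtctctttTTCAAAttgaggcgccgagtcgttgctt
MKI67: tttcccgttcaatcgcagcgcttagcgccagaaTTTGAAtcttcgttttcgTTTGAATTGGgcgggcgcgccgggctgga

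CDKN1A, which encodes the cell cycle inhibitor p21, had 285, 307 and 315 with ATRA plus VPA, against 127, 129 and 97.1 with VPA (log2 change 1.36 ± 0.22, adjusted p = 4.8e-05). CCNG2, a cyclin linked to arrest, rose by 0.93 and GADD45A, a growth arrest gene, by 0.69. GAS1, a growth arrest gene of the membrane, fell by 1.07, or 0.515 as the mean of its probe sets. Of 21 measured genes of this kind 3 rose and 3 fell, beside 5.13% and 6.74% of all genes.

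Genes of the MYC network, MYCN included, and of ribosome building fell in 12 of 32 measured and rose in 1 (median log2 change -0.19). For all genes the shares were 6.74% and 5.13%. NOP56, a nucleolar protein of ribosomal RNA modification, had 1969.5, 1843 and 1707 with ATRA plus VPA, against 3013, 2966 and 2479.9 with VPA (log2 change -0.61 ± 0.09, adjusted p = 1.3e-05, or -0.36 as the mean of its probe sets). ODC1, the first enzyme of polyamine synthesis, fell by 0.58, and the ribosome assembly factor PPAN by 0.60. MYCN had 5291, 5992 and 6247 with ATRA plus VPA, against 6648, 6769 and 7243 with VPA, a change of -0.24 ± 0.07 (adjusted p = 0.021) that became 0.065 when its probe sets were averaged and lost its call without ATRA plus VPA replicate 1 or VPA replicate 3. The list's falls numbered 8 without VPA replicate 2 and 4 when only the arrays compared were fitted.

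Noradrenergic genes, which mark the sympathetic lineage of neuroblastoma, rose in 8 of 22 measured and fell in 2 (median log2 change 0.19). Among all genes 5.13% rose and 6.74% fell. SLC18A1, which loads catecholamines into vesicles, had 185, 136 and 172 with ATRA plus VPA, against 60.8, 92.0 and 75.3 with VPA (log2 change 1.11 ± 0.16, adjusted p = 9.2e-06). SLC6A2, the noradrenaline transporter, had 2526, 2527 and 2544 with ATRA plus VPA, against 1529.9, 1141 and 1508 with VPA (0.87 ± 0.10, adjusted p = 2.3e-07). The lineage factor PHOX2A rose by 0.63 and the enzyme DBH, which makes noradrenaline, by 0.43. GATA3, another factor of the same lineage, went the other way, at 2046, 2111 and 1920.1 with ATRA plus VPA, against 3469.9, 3330.2 and 3299 with VPA (-0.73 ± 0.11, adjusted p = 1.4e-05). TH, the first enzyme of catecholamine synthesis, was at 193 ± 30.5 with ATRA plus VPA and 156 ± 19.6 with VPA (SD, n = 3 each) and did not pass (adjusted p = 0.48). The call for DBH was lost without ATRA plus VPA replicate 3, and 1 fall was left in the list without that array or without VPA replicate 1.

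Neuropeptide and secretory granule genes rose in 7 of 22 and fell in 3 (median log2 change 0.07), beside 5.13% and 6.74% of all genes. Beside CALCB, SCG5, a chaperone of prohormone convertase, had 512, 399 and 417 with ATRA plus VPA, against 237, 231 and 196 with VPA (log2 change 0.99 ± 0.13). PCSK1N, an inhibitor of a prohormone convertase, rose by 0.59, the granule protein VGF by 0.48 and the peptide VIP by 0.42. The granule protein CHGA fell by 0.40. The call for VGF was lost without ATRA plus VPA replicate 3 or VPA replicate 3.

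Neurite and cytoskeleton genes moved in both directions, with 4 of 29 higher and 5 lower (median log2 change 0.05). For all genes the shares were 5.13% and 6.74%. Without ATRA plus VPA replicate 2 or 3 there were 2 rises, and without VPA replicate 2 there were 3 falls. ELAVL4, a neuronal RNA-binding protein, had 3129, 3505 and 3259 with ATRA plus VPA, against 1508, 1423 and 1415 with VPA (log2 change 1.19 ± 0.10, adjusted p = 1.2e-10). DPYSL3, a collapsin response mediator, had 872, 928 and 933 with ATRA plus VPA, against 383, 350.7 and 312 with VPA (1.39 ± 0.09, adjusted p = 2.3e-12). The heavy neurofilament NEFH fell by 0.56, tau (MAPT) by 0.55 and the growth cone protein GAP43 by 0.27. The call for MAPT was lost without VPA replicate 3 and that for GAP43 when its probe sets were averaged. NEFM, the medium neurofilament, did not pass, at 3657 ± 15.96 with ATRA plus VPA and 3899.7 ± 225 with VPA (SD, n = 3 each). Synaptic vesicle genes had 1 rise, SYT11 (0.75), and 3 falls among 24 measured, or 16.7% called beside 11.9% of all genes. Of these falls 1 was left without ATRA plus VPA replicate 3 and 0 without VPA replicate 2. Of 25 ion channel genes 3 fell and none rose, or 12% called beside 11.9% of all genes. The sodium channel subunit SCN3B fell by 0.60, and 19 of the 25 genes were below 64 in both groups. Axon guidance genes gave 2 rises and 3 falls among 36, or 13.9% called beside 11.9% of all genes. Of the 36, 22 were below 64 in both groups. SEMA3F, a repulsive ligand, was at -0.98 (-0.44 as the mean of its probe sets) and PLXNA1, a plexin receptor of semaphorin signals, at -0.85. The rises of this list were 1 without ATRA plus VPA replicate 2 and 0 without ATRA plus VPA replicate 3 or VPA replicate 2 or 3. Its falls were 5 without VPA replicate 1.

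Matrix genes rose in 9 of 34 measured and fell in 2, with a median log2 change of -0.01. Among all genes 5.13% rose and 6.74% fell. FN1, fibronectin, had 1359, 1175 and 1238 with ATRA plus VPA, against 419, 455 and 419.8 with VPA (log2 change 1.54 ± 0.11, adjusted p = 1.3e-11, or 1.01 as the mean of its probe sets). COL1A1, a chain of type I collagen, had 151, 96.5 and 121 with ATRA plus VPA, against 43.8, 50.5 and 29.0 with VPA (1.57 ± 0.18, or 0.45 as the mean of its probe sets). COL6A3, a collagen VI chain, rose by 1.27 and TGM2, which cross-links proteins, by 1.36, or 0.33 as the mean of its probe sets. FBN1, fibrillin, fell by 0.78, or 0.51 as that mean. Without ATRA plus VPA replicate 2 or 3 or VPA replicate 2 the list had 1 fall. Of 10 epithelial markers 2 rose: the keratin KRT19, at 265, 261 and 289 with ATRA plus VPA, against 105, 88.5 and 116 with VPA, and EPCAM, near the lower quartile in both groups (log2 change 0.62, or 0.29 with a pseudocount of 32). The summed epithelial list was 533 to 570.0 with ATRA plus VPA, against 348 to 358 with VPA, and 9 of its 10 genes were below 64 in both groups. Its part in the matrix rises was not tested.

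Of 27 measured readouts of Notch, BMP and Wnt signalling 5 rose and 2 fell, beside 5.13% and 6.74% of all genes. ID1, a target of BMP signals, rose by 0.95, or 0.56 with the 3' to 5' ratio as a covariate, the secreted Wnt inhibitor DKK1 by 0.82 and the Notch target HEY1 by 0.49. LGR5, a receptor that strengthens Wnt signals, fell by 0.52, a call lost without ATRA plus VPA replicate 1 or 2 or VPA replicate 2 or 3. The other fall was that of JAG2, and there was 1 fall without ATRA plus VPA replicate 2 or VPA replicate 2 or 3. Integrin and laminin genes gave 2 rises and 1 fall among 23, a share called that is close to the 11.9% of all genes. The list as a whole therefore did not stand out. Its fall was the laminin chain LAMA5 (-0.79), and it had 1 rise without VPA replicate 2.

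Among apoptosis genes 3 of 27 rose and none fell, or 11.1% called beside 11.9% of all genes. BCL2, which holds back cell death, had 481, 424 and 386 with ATRA plus VPA, against 136, 145 and 116 with VPA (log2 change 1.69 ± 0.12, adjusted p = 1.4e-11). Its change was 0.49 as the mean of its 4 probe sets. CASP9, an initiator caspase, rose by 0.66 and DIABLO, which relieves caspase inhibition, by 0.55. The amino acid and ER stress list had 7 falls and 2 rises among 27, with STC2, a secreted glycoprotein, at -1.34 (-0.86 averaged over its probe sets) and the amino acid transporter SLC7A5 at -0.57. The rises there were GDF15 and DDIT4 (1.08), an inhibitor of mTORC1. Metallothioneins fell, MT1X by 0.82 and MT2A by 0.81, within a list where 4 of 19 fell and 1 rose. Beside these stress and metallothionein lists, 6.74% of all genes fell and 5.13% rose. IRF9, a partner of STAT factors in interferon signalling, had 496, 584 and 559 with ATRA plus VPA, against 159, 121 and 136 with VPA (1.98 ± 0.13), within an interferon and MHC list where 2 of 28 rose and 1 fell, or 10.7% beside 11.9% of all genes. In that list 1 rise was left without any 1 of the ATRA plus VPA arrays or without VPA replicate 3.

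In the list of histone deacetylases, acetyltransferases and acetyl readers, 1 of 21 rose and 1 fell, or 9.52% beside 11.9% of all genes. HDAC9, a class IIa deacetylase, had 242, 215 and 197 with ATRA plus VPA, against 444, 403 and 428 with VPA (log2 change -0.96 ± 0.11, adjusted p = 1.7e-07). KAT6B, an acetyltransferase, had 343, 349 and 336 with ATRA plus VPA, against 158, 166 and 158 with VPA (1.09 ± 0.09, adjusted p = 1.7e-10, or 0.55 as the mean of its probe sets). These 2 moved in opposite directions. HDAC1 was at 1233 ± 31.9 with ATRA plus VPA and 1382 ± 213 with VPA, and HDAC2 at 2068 ± 97.0 with ATRA plus VPA and 1932 ± 32.3 with VPA (SD, n = 3 each), with adjusted p of 0.43 and 0.43. Of 41 histone genes 40 did not pass, and the call of the other was lost without ATRA plus VPA replicate 2 or 3 or VPA replicate 3. Without ATRA plus VPA replicate 1 a second deacetylase list member was lower.

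**Figure D2:**
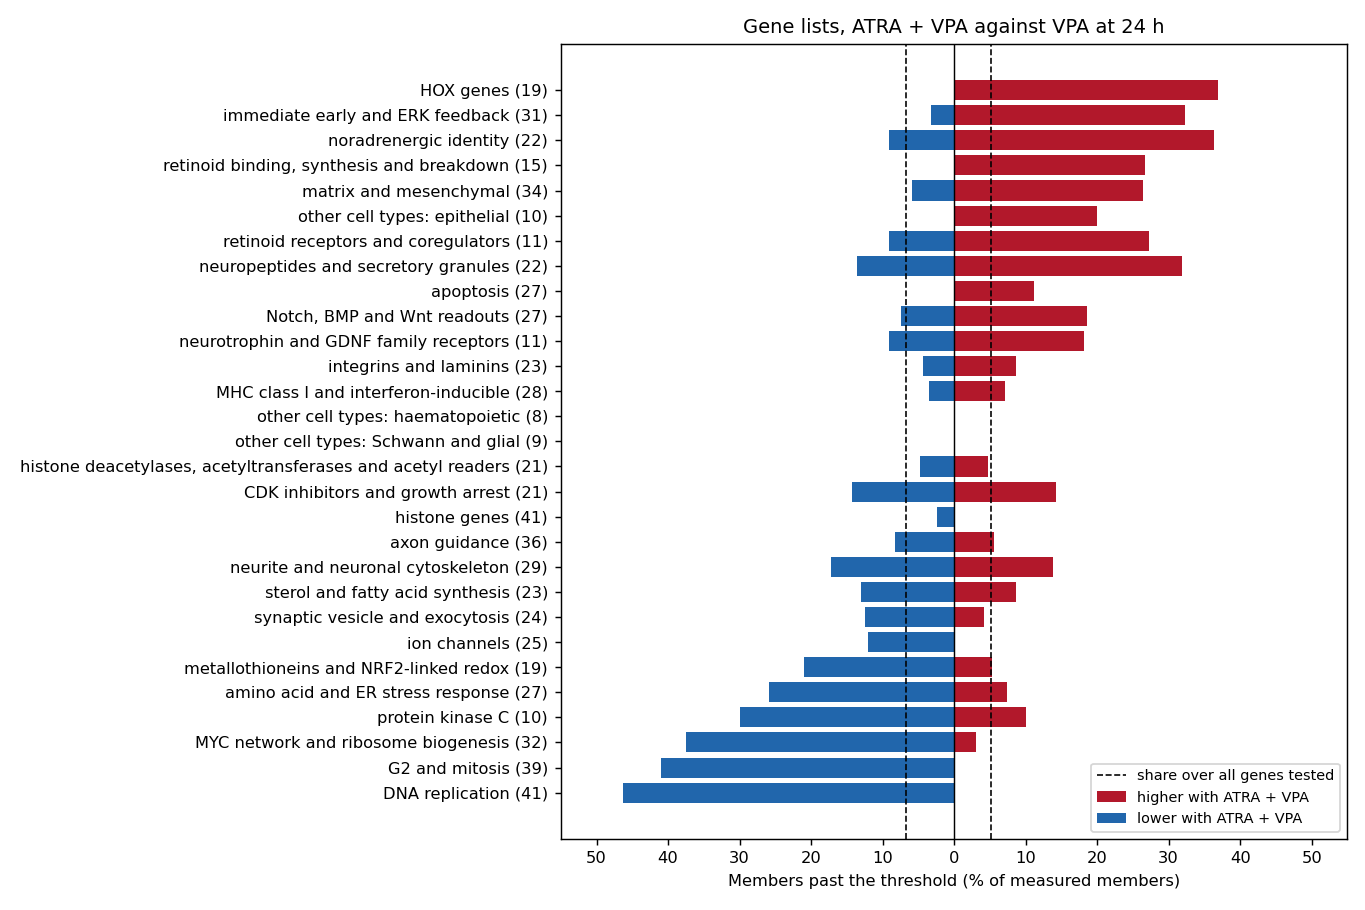
Share of measured members of each gene list (number measured in brackets) that rose (right) and that fell (left) with ATRA plus VPA against VPA at 24 h, with dashed lines at the shares over all genes, 5.13% and 6.74%. DNA replication (19 of 41) and G2 and mitosis (16 of 39) have the largest shares of falls, and HOX genes (7 of 19) the largest share of rises.

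The same addition of ATRA can be read without VPA in the 3 ATRA arrays and the 3 DMSO arrays of 24 h, which share no array with the comparison above. ATRA against DMSO changed 2213 genes (18.5%), 1493 higher (12.5%) and 720 lower (6.03%). Of the 612 genes that rose on top of VPA, 525 also rose without it, which is 85.8% of the first set and 35.2% of the second. Of the 805 that fell, 410 also fell without VPA, 50.9% and 56.9% of the sets. DMSO replicate 1 stood apart from its group, with a median intensity of 43.6, and without it the rises of ATRA against DMSO numbered 850, of which 436 were shared. Log2 changes of all 11940 genes with and without VPA had a Pearson r of 0.767 and a Spearman rho of 0.613. That is a description across genes, which are not independent. In the 525 shared rises the median log2 change was 0.56 with VPA and 0.71 without it, and 381 were smaller with VPA. In the 410 shared falls the medians were -0.48 with VPA and -0.47 without it, and 201 were smaller with VPA. Over all genes the median of the change with VPA minus that without was -0.07. It was -0.01 without DMSO replicate 1 and 0.003 after a second quantile normalization. The sizes in the shared sets were not recomputed without DMSO replicate 1.

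**Figure D3:**
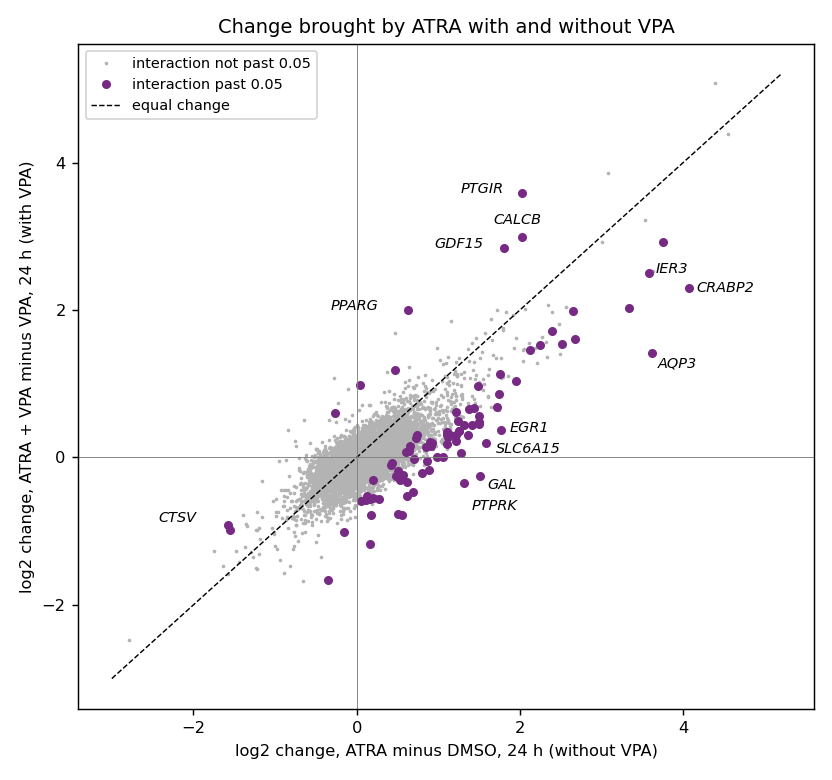
Log2 change of each of 11940 genes when ATRA was added to VPA (vertical axis) and when ATRA was given against DMSO (horizontal axis) at 24 h, with the 88 genes whose changes differ as large points. Of these, 79 lie below the dashed line of equal change and 9 above it.

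Whether ATRA's change differed with VPA was tested as the interaction, the change with VPA minus that without. It passed in 88 genes (0.737%), 9 higher (0.0754%) and 79 lower (0.662%), and in 1168 at an unadjusted p under 0.05. Of the 88, 35 rose in both settings. Another 21 rose without VPA and had a positive change with it that did not pass, and 12 rose without VPA and had a negative one that did not pass. The count was 55 without ATRA plus VPA replicate 2 or without VPA replicate 2, 56 without DMSO replicate 1 and 231 without DMSO replicate 3. The 9 were 14 without ATRA plus VPA replicate 1 and 21 without DMSO replicate 3.

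CRABP2, the carrier of ATRA, rose in both settings and less with VPA. Without VPA it had 5083, 4249 and 4426 with ATRA, against 161, 337 and 361 with DMSO, a log2 change of 4.08 ± 0.17 beside 2.30 on top of VPA (interaction -1.78 ± 0.24, adjusted p = 4e-05). The ATRA arrays without VPA reached the level seen with both agents, and the VPA arrays were above the DMSO ones, of which replicate 1 was the lowest. AQP3, a water and glycerol channel, had 382, 445 and 395 with ATRA and 27.7, 33.1 and 36.5 with DMSO. With the agents combined it had 272, 194 and 176, against 87.1, 91.1 and 60.0 with VPA (interaction -2.20 ± 0.21, adjusted p = 1.2e-07, or -0.85 as the mean of its probe sets).

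GAL, the neuropeptide galanin, rose with ATRA in the absence of VPA, at 1481, 1420.5 and 1507, against 448, 533 and 577 with DMSO (log2 change 1.51). On top of VPA it passed as a small fall, at 405, 474 and 499, against 542, 573 and 519 with VPA (log2 change -0.25, a call lost without ATRA plus VPA replicate 1 or 2 or VPA replicate 1 or 2, interaction -1.76 ± 0.11, adjusted p = 2e-11). EGR1 likewise rose without VPA, at 1382, 1714 and 1675 with ATRA, against 389.5, 457 and 554 with DMSO (1.78), and did not pass on top of it (interaction -1.41 ± 0.19, adjusted p = 3.9e-05). The phosphatase gene PTPRK and the amino acid transporter gene SLC6A15 showed the same order, with interactions of -1.66, or -1.09 with a pseudocount of 32, and -1.38. Among ERK-linked genes IER3 rose in both settings and by less with VPA (interaction -1.08, or -0.67 with a pseudocount of 32), whereas for DUSP6 the interaction did not pass (-0.31, adjusted p = 0.59).

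A few genes rose more on top of VPA. PPARG, a nuclear receptor of fat metabolism, had 26.8, 33.8 and 36.9 with ATRA, against 20.2, 19.7 and 21.4 with DMSO, near the lower quartile in both. On top of VPA it had 85.03, 92.1 and 73.3, against 21.6, 20.6 and 17.7 with VPA (log2 change 2.01, interaction 1.38 ± 0.20, adjusted p = 0.00015, or 0.85 with a pseudocount of 32). PTGIR (interaction 1.57), GDF15 (1.04, or 0.59 as the mean of its probe sets) and CALCB (0.96) also rose in both settings and more with VPA. For CYP26A1 the interaction did not pass (0.78 ± 0.24, adjusted p = 0.17), nor did it for PRKCH (0.68 ± 0.19, adjusted p = 0.091). CYP26B1 rose less with VPA (-0.82, adjusted p = 0.037), a call that was lost in 11 of 22 alternatives, among them those without DMSO replicate 1 and without ATRA plus VPA replicate 1. Of the interactions given for other genes here, those of AQP3, GAL, EGR1, PTPRK, SLC6A15, PPARG and CALCB held in every alternative run, and those of CRABP2, IER3, PTGIR and GDF15 in all but a fit of the 12 arrays compared.

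For the cell cycle lists the interaction passed in no gene of 41 and of 39, beside 0.737% of all genes, with medians of 0.06 and 0.14. In simulated data 26% and 22% of planted interactions of 0.5 and -0.5 were called. Equal falls with and without VPA are therefore not shown. Without VPA, 27 of 41 replication genes and 28 of 39 mitotic genes fell with ATRA against DMSO, beside 6.03% of all genes. Sterol and fatty acid genes rose in 12 of 23 with ATRA against DMSO and in 2 of 23 on top of VPA, where 3 fell. The rises were 1 without any 1 of the ATRA plus VPA arrays or VPA replicate 2 and 0 without VPA replicate 3, and the falls 1 without ATRA plus VPA replicate 2 or 3 or VPA replicate 1. The interaction passed in 1 of these 23 genes, so a difference for the others is not shown. Among all genes 12.5% rose with ATRA against DMSO, and 5.13% rose and 6.74% fell on top of VPA.

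The same pair of treatments at 6 h and 72 h gave the course of the response, with arrays of their own at each time. At 6 h ATRA on top of VPA changed 68 genes (0.57%), 54 higher (0.452%) and 14 lower (0.117%). At 24 h it changed 1417, and at 72 h 3072 (25.7%), 1469 higher (12.3%) and 1603 lower (13.4%). Of the 54 early rises 44 were also rises at 24 h, which is 81.5% of them and 7.19% of the 612. At 72 h 464 of the 612 were called rises again (75.8%, and 31.6% of those at 72 h), as were 550 of the 805 falls (68.3% and 34.3%).

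PRKCH, RET, RARA and CRABP2 had already risen at 6 h, with log2 changes of 2.51, 1.27, 0.92 and 1.25. At 24 h they were 5.08, 1.64, 0.95 and 2.30, and at 72 h 4.69, 1.03, 1.17 and 2.36. CYP26A1 did not pass at 6 h (0.68) and reached 3.86 at 24 h and 5.19 at 72 h. CYP26B1 likewise had 0.15 at 6 h, 2.93 at 24 h and 4.51 at 72 h. CRABP2 and RARA were thus called at 6 h and the oxidases at 24 h.

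The change at 24 h differed from that at 6 h in 328 genes (2.75%), 184 higher (1.54%) and 144 lower (1.21%), a count that was 217 without ATRA plus VPA replicate 3 of 24 h. The lower ones ran between 84 and 242 as 1 array was left out, 84 without that array and 242 without ATRA plus VPA replicate 1 of 24 h. CALCB had 33.5, 34.0 and 39.4 with ATRA plus VPA at 6 h, against 35.7, 33.9 and 37.2 with VPA. Its rise thus appeared between 6 h and 24 h and was larger at 72 h (difference of log2 changes, 24 h minus 6 h, 2.99 ± 0.16, adjusted p = 8.8e-14). CYP26A1 (3.18), HTR2B (3.06) and PTGIR (2.92) had the other 3 largest positive differences. KCTD12 was already lower at 6 h, at 229.8, 192 and 186 with ATRA plus VPA, against 313, 361 and 358 with VPA, and the difference of log2 changes was -1.72. By 24 h its level was lower with ATRA plus VPA, at 134, 155 and 111, and higher with VPA, at 717, 765 and 746, than at 6 h. CRISPLD2, a secreted protein, rose at 6 h (0.82) and fell at 24 h (-0.80).

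Between 24 h and 72 h the change differed in 746 genes (6.25%), 426 higher (3.57%) and 320 lower (2.68%), or in 416 with the 3' to 5' ratio as a covariate. The lower ones were 195 without ATRA plus VPA replicate 2 of 24 h, 197 without its replicate 3, 208 without VPA replicate 2 of 24 h and 204 without ATRA plus VPA replicate 1 of 72 h. STMN4, a neuronal protein that binds tubulin, was near the lower quartile at 24 h, at 37.9, 37.8 and 34.7 with ATRA plus VPA, against 34.8, 32.1 and 31.5 with VPA. At 72 h it had 682, 822 and 849 with ATRA plus VPA, against 39.3, 36.9 and 34.8 with VPA (difference of log2 changes 4.2 ± 0.24, adjusted p = 2.2e-13). RAB38, a trafficking GTPase (3.21), CALCB (3.13) and GPNMB, a transmembrane glycoprotein (3.12), also had positive differences between these times. For HTR2B the log2 change was 4.39 at 24 h and 2.35 at 72 h. At 72 h it had 3342, 3342 and 3072 with ATRA plus VPA, against 686, 609.6 and 615 with VPA, so both groups were above their 24 h levels and the gap between them was smaller. PLPPR4, a neuronal membrane protein, and the integrin gene ITGA8 had differences of -1.94 and -1.78.

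The cell cycle lists also changed with time. At 6 h none of the 41 replication genes and none of the 39 mitotic genes passed in either direction. At 24 h 19 and 16 had fallen, and at 72 h 37 and 38. Over all genes, 0.117% fell at 6 h, 6.74% at 24 h and 13.4% at 72 h. The difference between 24 h and 6 h passed as lower in 10 replication and 4 mitotic genes, beside 1.21% of all genes. That between 72 h and 24 h did so in 12 and 18, beside 2.68% of all genes. The median log2 changes of the replication list were 0.04 at 6 h, -0.32 at 24 h and -0.68 at 72 h, and those of the mitotic list 0.04, -0.25 and -0.64. CDC20 had a log2 change of 0.00 at 6 h, -0.57 at 24 h and -1.06 at 72 h. Neurite genes rose in none of 29 at 6 h, in 4 at 24 h and in 15 at 72 h. The shares of all genes that rose at these times were 0.452%, 5.13% and 12.3%. HOXD4 changed by 0.51 at 6 h, a value that did not pass, by 1.76 at 24 h and by 2.78 at 72 h. The noradrenergic genes had 8 rises and 2 falls at 24 h and 7 rises and 8 falls at 72 h.

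**Figure D4:**
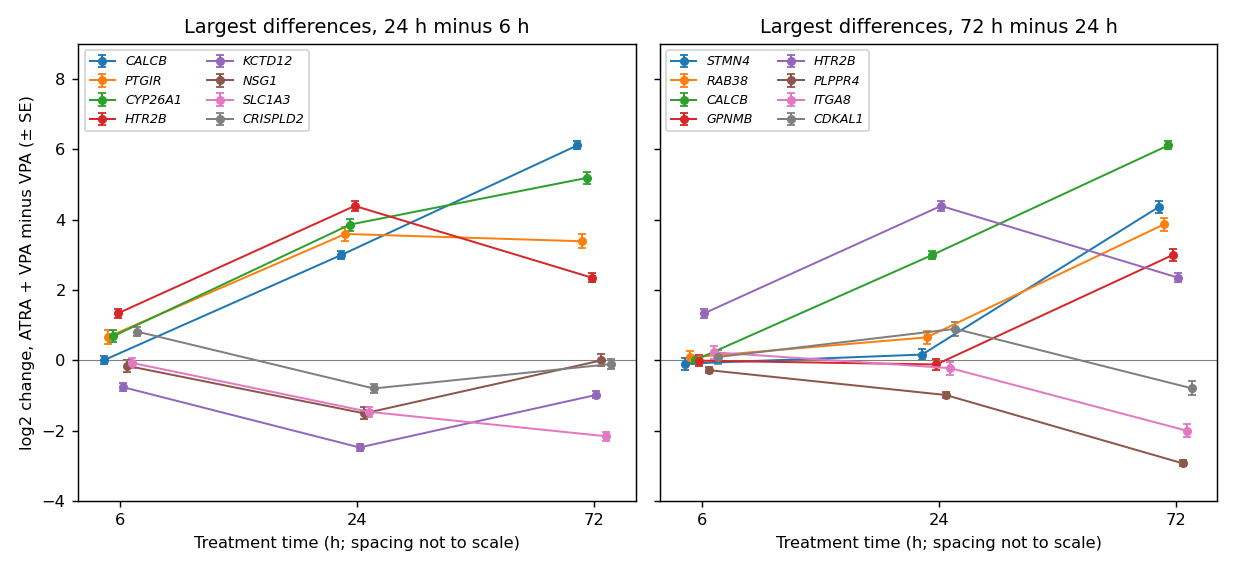
Log2 change of ATRA plus VPA against VPA at 6, 24 and 72 h, with standard errors, for the 8 genes whose change differed most between 6 h and 24 h (left) and between 24 h and 72 h (right). CYP26A1 climbs to 5.19 and CALCB to 6.12 at 72 h, the change of HTR2B is largest at 24 h, and those of STMN4, RAB38 and GPNMB grow after 24 h.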

How the data were processed

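The deposited values are intensities on a linear scale, which the authors summarised per probe set by RMA, per the submitters' processing notes; build and software version are not given in the sources used here. Tests used log2(intensity + 1). Of 22930 probe sets 19415 carried 1 gene symbol, 125 several and 3292 none; 98 control probe sets were left out. Each gene was read from its probe set with the highest mean, giving 11940 genes, 4507 of them with more than 1. All 12 groups of 35 arrays were fitted with limma 3.58.1 in R 4.3.3 (lmFit, eBayes; 23 residual and 5.5 prior degrees of freedom), with Benjamini-Hochberg adjustment over all genes and a threshold of 0.05. Errors of log2 changes are standard errors of that fit.

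The text names the 15 largest rises and 15 largest falls with separate groups and a mean of at least 64, the 6 largest interactions and the 4 largest time differences in each direction, up to 5 members of each list by size of change, and a set of always named genes. HOXD3, HOXC4 and CHGA fall outside this rule and were named after their values were seen. Members, lists and alternatives were chosen with earlier results of these data known. The fit was tested on simulated data holding 50 changed genes of each size: 96% and 100% of log2 changes of 1 and -1 were called in the main comparison, 60% and 74% of those of 0.5 and -0.5, and 8 unplanted genes. Alternatives were a replicate block, array weights, the arrays compared alone, other pseudocounts, a second quantile normalization, the mean of all probe sets, the 3' to 5' covariate, a filter on the lowest 33.3% of genes, an intensity trend and leaving out each array. RefSeq promoter windows were matched by gene identifier for 9592 genes.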

Additional observations from a re-analysis of the deposited data

Results flagged for a closer look

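The effect of ATRA differed between cells with and without VPA in 88 genes at 24 h by the limma interaction term, between 24 h and 6 h in 328 genes and between 72 h and 24 h in 746 genes, both by a limma contrast of the 2 changes. Each value that follows is such a difference on the log2 scale, and the difference itself was tested in each.

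With VPA minus without VPA, the lower changes were AQP3 at -2.20, CRABP2 at -1.78, GAL at -1.76, PTPRK at -1.66, EGR1 at -1.41, SLC6A15 at -1.38, JAG2 at -1.31, PRSS12 at -1.30, IER3 at -1.08 and CYP26B1 at -0.82. As the mean of its probe sets AQP3 was at -0.85, and with a pseudocount of 32 PTPRK was at -1.09, JAG2 at -0.87 and IER3 at -0.67. The higher ones were PTGIR at 1.57, PPARG at 1.38, GDF15 at 1.04, CALCB at 0.96, RARB at 0.87, the cathepsin gene CTSV at 0.66 and PLPPR4 at 0.57. CTSV and PLPPR4 fell in both settings, and by less with VPA. The interaction of PLPPR4 was lost without VPA replicate 2, and that of CTSV without ATRA replicate 1 or 2, ATRA plus VPA replicate 2, DMSO replicate 2 or VPA replicate 1 or 2. JAG2 fell with VPA (-1.66) and did not pass without it (-0.35). GDF15 was at 0.59 as the mean of its probe sets, and PPARG at 0.85 with a pseudocount of 32. RARB lay near the lower quartile of the arrays, and its interaction was lost when its probe sets were averaged.

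For the change at 24 h minus that at 6 h the differences were 3.18 for CYP26A1, 3.06 for HTR2B, 2.99 for CALCB and 2.92 for PTGIR. They were -1.72 for KCTD12, -1.62 for CRISPLD2, -1.39 for SLC1A3 and -1.35 for NSG1. For the change at 72 h minus that at 24 h they were 4.2 for STMN4, 3.21 for RAB38, 3.13 for CALCB and 3.12 for GPNMB. The negative ones were -2.04 for HTR2B, -1.94 for PLPPR4, -1.78 for ITGA8 and -1.69 for CDKAL1, which encodes a tRNA-modifying enzyme and was at -1.10 with the 3' to 5' ratio as a covariate. At 24 h RAB38, GPNMB and STMN4 averaged below 64 in both groups.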

How the results depend on the processing

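Directions and calls of the 30 largest changes held in the 16 alternatives run, and of 135 named genes called, 101 kept their call in each. The counts moved more. Array weights gave 2571 genes for ATRA plus VPA against VPA (1125 higher, 1446 lower), 411 for the interaction (124 and 287), 802 for 24 h minus 6 h, 1621 for 72 h minus 24 h and 3431 for ATRA against DMSO. Fitting only the arrays compared gave 834 (403 and 431), 18 for the interaction (2 and 16), 204 for 24 h minus 6 h and 718 for ATRA against DMSO. With the 3' to 5' ratio as a covariate the falls were 531 and 72 h minus 24 h gave 416. The higher interactions were 14 with a pseudocount of 32 and 14 after a second quantile normalization, which moved their share among interaction calls by over 10 percentage points, to 20.6%. Array weights moved that share to 30.2%. MYCN reversed to 0.065 with the mean of all probe sets. The causes were not tested.

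Leaving out 1 array at a time gave 896 to 1609 genes for ATRA plus VPA against VPA (417 to 713 higher, 479 to 896 lower) and 55 to 231 for the interaction (6 to 21 higher, 45 to 210 lower). It gave 217 to 466 for 24 h minus 6 h, 507 to 965 for 72 h minus 24 h and 1648 to 2685 for ATRA against DMSO. ATRA plus VPA replicate 3 gave the lowest count of the first, and DMSO replicate 3 the highest of the interaction.

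Same-numbered arrays at 24 h did not deviate together (correlations of 0.06, -0.17 and 0.31 between ATRA plus VPA and VPA), so the numbers were not taken as pairs. With the replicate block the count was 1376, of which 1309 are among the 1417, and 70 for the interaction. Signal over background limits genes near the lower quartile, where folds depend on the pseudocount.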
